A study of Rattus norvegicus with 6 samples.

Results

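The mRNAs of the mitochondrial ribosomal proteins were examined in rat liver after 2 weeks on a control diet (CD) or a Western diet (WD). Members were the rows of the expression table whose gene symbol was Mrpl or Mrps followed by a number and, where present, a letter from a to c. They came to 73 genes of 28007 gene symbols in the table, 44 named for the large subunit (Mrpl) and 29 for the small subunit (Mrps). Mrpl36, Mrpl53 and Mrps36 each occurred on 2 loci and were taken at the locus with the higher mean. The rats were male obesity-prone Sprague Dawley animals that had all been fasted overnight and then given their own diet again before the liver was taken. Total RNA, the light fraction of a sucrose gradient (mRNAs carrying 3 or fewer ribosomes) and the heavy fraction (4 or more ribosomes) were each sequenced from CD and from WD livers, which gave 6 groups of 1 library. Each library held the RNA of 3 rats combined, so that no spread between animals could be had and no test between diets or fractions was possible. Values are FPKM, fragments scaled to the length of the transcript and the depth of the library, so that levels can be set side by side between genes.

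Mitochondria have ribosomes of their own, which translate the few proteins encoded on mitochondrial DNA, all of them subunits of the respiratory chain and ATP synthase. The RNA of this ribosome is mitochondrial, but its proteins are encoded in the nucleus, translated on cytosolic ribosomes and imported. Many of them have a counterpart in the bacterial ribosome, while others are found only in mitochondria. The large subunit forms peptide bonds and the small subunit reads the mRNA. How many cytosolic ribosomes such an mRNA carries therefore bears on the production of parts of another translation machine. In these libraries the heavy to light ratio, the study's measure of ribosome density, was the FPKM in the heavy fraction over that in the light fraction.

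The 7 hepatocyte markers looked up (Alb, Apoa1, Ttr, Serpina1, Tf, Fgb and Cps1) were above 0 in every library and summed to between 43786 and 135986 FPKM. Summed levels of red blood cell markers ran from 17.1 FPKM in the WD heavy fraction to 503 FPKM in the WD light fraction, and those of Kupffer cells, sinusoidal endothelium and stellate cells stayed between 36.1 and 98.2 FPKM. The high sum in WD light RNA came from the globins Hba1, Hba2 and Hbb. The remaining red blood cell marker, Alas2, was at its lowest there, with 7.18 FPKM against 19.7 FPKM in CD light RNA. The part of globin RNA in the results on members was not tested. The WD light fraction also stood apart in depth, since 1 fragment was worth 0.673 of its FPKM value in CD total RNA there, against 1.05 in WD total RNA and 1.46 to 1.57 in the other 3 fraction libraries. In whole liver, fewer cells of a type and less RNA per cell cannot be told apart.

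Members were low to moderate in level. Of the 73 genes, 69 reached a mean of 1 FPKM over the 6 libraries and were compared with the 10201 loci that passed the same filter, namely 41 large and 28 small subunit members. The mean levels of these 69 ran from 1.64 FPKM for Mrps22 to 88.9 FPKM for Mrpl20, with a median of 10.6 FPKM against 7.00 FPKM over all loci compared. The median mean level was 10.8 FPKM for the large and 9.80 FPKM for the small subunit. For scale, the median was 73.2 FPKM for the cytosolic large ribosomal proteins and 98.9 FPKM for the cytosolic small ones. The members together held 1051 FPKM in CD total RNA and 1024 FPKM in WD total RNA. In the fractions they summed to 1399 FPKM (CD light), 1202 FPKM (CD heavy), 1446 FPKM (WD light) and 1381 FPKM (WD heavy).

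**Figure D1:**
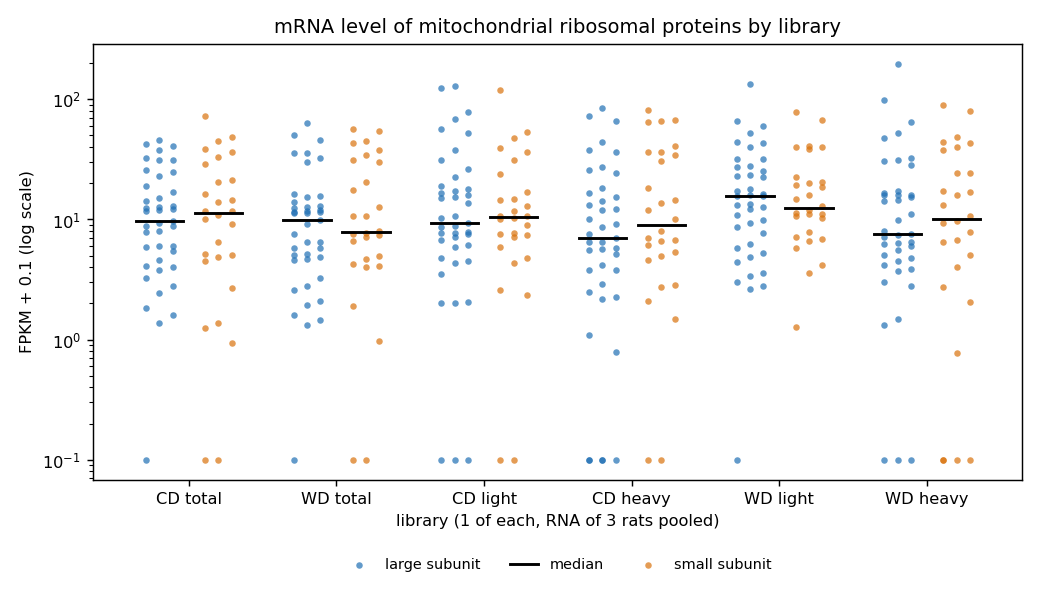
Level of the 69 members compared in each of the 6 libraries, as FPKM + 0.1 on a log axis, with 1 point per gene, the large subunit in blue, the small subunit in orange and a black bar at the median. The medians of both subunits lay between 6.87 and 15.5 FPKM in every library, and points at the bottom are members listed at 0.

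Mrpl20, the counterpart of a bacterial protein that binds ribosomal RNA early in assembly, was the highest member. It was at 45.5 FPKM in CD total RNA, 63.9 in WD total RNA, 124 in CD light, 66.5 in CD heavy, 135 in WD light and 98.6 in WD heavy. Both light fractions lay above both heavy fractions, and total RNA was the lowest in each diet. Mrps7, which helps to form the head of the small subunit, followed with 48.4 FPKM in CD total, 54.0 in WD total, 119 in CD light, 65.6 in CD heavy, 77.6 in WD light and 89.3 in WD heavy RNA. Its light fraction was the higher one in the CD and its heavy fraction the higher one in the WD. Mrpl42, found in mitochondria only, was at 41.0 FPKM in CD total, 50.6 in WD total, 128 in CD light, 43.9 in CD heavy, 66.4 in WD light and 28.6 in WD heavy RNA. It was more than 2-fold higher in the light than in the heavy fraction on both diets.

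The next 3 members in level leaned toward the heavy fraction. Mrps33, a small subunit protein specific to mitochondria, was at 72.6 FPKM in CD total, 56.9 in WD total, 53.1 in CD light, 81.9 in CD heavy, 38.1 in WD light and 48.7 in WD heavy RNA. Mrps16, a counterpart of bacterial S16, was at 38.8 FPKM in CD total, 45.1 in WD total, 47.3 in CD light, 64.4 in CD heavy, 66.7 in WD light and 79.4 in WD heavy RNA. Mrpl15, the counterpart of bacterial L15, was at 42.1 FPKM in CD total, 46.1 in WD total, 68.1 in CD light, 72.3 in CD heavy, 43.5 in WD light and 64.6 in WD heavy RNA. All 3 had more in the heavy than in the light fraction on both diets, by less than 2-fold. For Mrps33 and Mrps16 this was within counting error on both diets, by the intervals described below, and for Mrpl15 no interval could be had.

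The 4 members under the filter were listed at or near 0. A value of 0 here is not evidence of absence, since 9 of 70 cytosolic ribosomal protein genes, which every cell uses, were also listed at 0 in all 6 libraries, among them Rpl8, Rps6 and Rplp2. Mrpl1 was listed at 0 in all 6 libraries. Mrpl30 had at most 2.34 FPKM, in CD total RNA, and was at 0 in CD heavy and WD light RNA. Mrpl53 was listed above 0 in a single library, with 3.10 FPKM in CD light RNA. Mrps35 was listed at 0.628 FPKM in CD light (1 fragment) and at 2.89 FPKM in WD light RNA (10 fragments), and at 0 in the other 4 libraries. Mrpl30 has 9 named pseudogenes and Mrpl1 has 2 in the RefSeq rat annotation, and 23 members have 40 named pseudogenes between them, with which reads can be shared. Another locus is overlapped by 11 members, among them Mrpl43 (with Peo1), Mrpl21 (with Ighmbp2), Mrpl49 (with Syvn1), Mrps18a (with Rsph9) and Mrps7 (with Gga3 and U6). Reads of such a pair may have been split between the genes.

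Members are spread over 18 chromosomes in the files' build Rnor_6.0, with 12 on chromosome 1 and 11 on chromosome 10. One pair of neighbours stood out on chromosome 1, where Mrpl46 (140469279 to 140477796) and Mrps11 (140477867 to 140487248) lie 71 bases apart. Mrpl46 had 10.2 FPKM in CD light and 0.994 in CD heavy RNA. Mrps11 was at 0 in CD light and at 1.99 FPKM, or 1 fragment, in CD heavy RNA.

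Promoters of members were searched for motif letters, beside those of all protein-coding genes and of 63 cytosolic ribosomal proteins. RefSeq promoter sequences of the later assembly GRCr8, from 250 bases before to 50 after the annotated start, were given for 58 members and for 19005 protein-coding genes. The whole 300 bases were searched on both strands for exact letters of motifs that are known from promoters of nuclear genes for mitochondrial proteins. AAGATGGCG, the core of the YY1 motif, was in 9 of 58 members (15.5%), in 3 cytosolic ribosomal protein promoters (4.76%) and in 2.29% of all promoters. CCGGAAG, the core of the ETS family motif that NRF2/GABP also binds, was in 19 members (32.8%) and 20 cytosolic ribosomal protein promoters (31.7%), against 11.2% of all. The NRF1 motif (GCGCA, any base, GCGC) was in 8 members (13.8%) and 6 cytosolic ribosomal protein promoters (9.52%), against 6.09% of all. GGGCGGG, the SP1 motif, was in 18 members (31.0%) and 19 cytosolic ribosomal protein promoters (30.2%), against 30.7% of all promoters, and TATAAA in 7 (12.1%) and 6 (9.52%), against 13.1%. These are matches of letters and not observed binding.

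The 100 bases before the start of 5 members are shown because each holds such a match and each gene recurs in the results. Capitals mark a match of NRF1, ETS or YY1 letters, while SP1 matches were left in lower case. The match is an ETS motif in Mrps18a, Mrpl33 and Mrpl52 (in Mrpl52 on the other strand), an NRF1 motif in Mrpl32, and both an ETS and a YY1 motif, the latter on the other strand, in Mrpl36. In GRCr8 they lie at chr9:22367381-22367480 (minus strand) for Mrps18a, chr17:55260551-55260650 (plus) for Mrpl32, chr6:30553988-30554087 (minus) for Mrpl33, chr15:31852836-31852935 (plus) for Mrpl52 and chr1:31795122-31795221 (minus) for Mrpl36.
Mrps18a: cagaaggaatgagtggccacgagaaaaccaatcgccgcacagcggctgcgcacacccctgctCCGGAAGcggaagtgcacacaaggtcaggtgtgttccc
Mrpl32: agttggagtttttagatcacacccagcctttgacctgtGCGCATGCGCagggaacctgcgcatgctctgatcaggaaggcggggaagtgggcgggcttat
Mrpl33: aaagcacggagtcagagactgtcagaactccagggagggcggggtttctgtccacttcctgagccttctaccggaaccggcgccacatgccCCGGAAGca
Mrpl52: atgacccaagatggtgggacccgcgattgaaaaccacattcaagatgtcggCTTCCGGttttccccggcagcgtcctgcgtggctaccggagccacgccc
Mrpl36: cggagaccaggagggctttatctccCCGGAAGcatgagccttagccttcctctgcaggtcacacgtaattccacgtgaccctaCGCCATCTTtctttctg

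A start with C and then 4 pyrimidines is the mark of TOP mRNAs, the class that includes the cytosolic ribosomal proteins and whose translation follows mTORC1. At the annotated start it was found in Mrps5 and Mrpl4 only, 2 of 58 members (3.45%), against 24 of 63 cytosolic ribosomal protein genes (38.1%) and 2.44% of all promoters. The 2 kinds of ribosomal protein also had different medians in the fractions. The median log2 heavy to light ratio of cytosolic ribosomal proteins was -0.85 (large, 36 genes) and -0.72 (small, 24 genes) in the CD, and -2.17 and -1.66 in the WD. For the 69 mitochondrial members it was 0 in the CD and -0.19 in the WD. Of the cytosolic genes, Rpl10a, Rpl27, Rpl30 and Rpl36 were above 0 in WD light RNA only and passed the filter through that library. Rps2 and Rps19 also owed most of their mean to it (95.1 and 121 FPKM). The low WD ratios of these genes were thus partly set by the filter. All these medians are of the libraries as deposited, and no test was made of the difference between the 2 kinds.

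On the CD, the median of the members lay near that of all loci compared, while the counts past the thresholds leaned to the light side. The median log2 heavy to light ratio of 0 compares with 0.01 over all loci. It is the value of Mrpl33 and Mrpl35, which were listed at 0 in both CD fractions. A ratio of at least 1.5 was seen in 19 of 69 members (27.5%), against 32.9% of all loci. A ratio of at most 0.75 was seen in 29 members (42.0%), against 36.6% of all loci. The large subunit had a median of -0.22, with 9 members at 1.5 or more and 20 at 0.75 or less. The small subunit had a median of 0.16, with 10 and 9 members. By origin, the median was -0.01 for 25 large subunit proteins with a bacterial counterpart and -0.68 for 18 that are specific to mitochondria, while it was -0.08 for 16 small subunit proteins with a counterpart and 0.63 for 9 specific ones. Here Mrps30 and Mrps18a, which carry a small subunit name and sit in the large subunit, were placed by their position.

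How far the number of fragments limits a ratio was worked out for 55 members (35 large, 20 small), whose FPKM values could be traced back to whole fragments. Their median was 10 fragments in CD total, 9 in WD total, 8 in CD light, 6 in CD heavy, 19 in WD light and 6 in WD heavy RNA. Each ratio was given a 95% exact (Clopper-Pearson) interval, which covers counting error only and compares libraries rather than diets. On the CD the interval lay wholly above 1 for 2 of 53 members (3.77%), against 13.3% of loci with fragments, and wholly below 1 for 11 members (20.8%), against 13.5%. For most members the depth could not separate the fractions, and none of the 69 had upper and lower bounds of Cufflinks that did not overlap between CD heavy and CD light RNA, against 1% of all loci.

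The 2 members above 1 in the CD were Mrps23 and Mrps25, both small subunit proteins specific to mitochondria. Mrps23 was at 10.5 FPKM in CD light and 36.5 in CD heavy RNA, a ratio of 3.46 (interval 1.59 to 8.31, from 9 and 29 fragments). In the WD it was at 12.9 and 44.2 FPKM, a ratio of 3.42 (1.98 to 5.99). Mrps25 was at 23.9 FPKM in CD light and 66.7 in CD heavy RNA, a ratio of 2.79 (1.30 to 6.49), and at 11.0 and 40.1 FPKM in the WD, a ratio of 3.65 (1.56 to 8.99). These 2 were the only members whose interval lay above 1 on both diets.

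Among the 11 below 1 in the CD were 4 of the more abundant members. Mrpl20 had a ratio of 0.537 (interval 0.325 to 0.868) from 54 light and 27 heavy fragments. Mrpl42 had 0.343 (0.178 to 0.624) and Mrps7 0.552 (0.363 to 0.826). Mrpl37, a large subunit protein specific to mitochondria, was at 78.7 FPKM in CD light and 27.4 in CD heavy RNA, a ratio of 0.349 (0.213 to 0.554) from 77 and 25 fragments. Mrpl12, the factor-binding stalk protein of the large subunit, was at 15.0 and 5.04 FPKM, a ratio of 0.336 (0.096 to 0.959). The other 6 were Mrpl32, Mrpl46, Mrpl51, Mrpl52, Mrpl54 and Mrps15.

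The lowest heavy to light ratios of the CD all belonged to members at 0 in CD heavy RNA, so that only a limit can be given. Mrpl32, whose processing by a mitochondrial protease precedes ribosome assembly in yeast, was at 13.5 FPKM in CD light RNA and 0 in CD heavy RNA. This was 1.86-fold lower when 0 is taken as 3 fragments of the CD heavy library. The counting interval of its ratio reached up to 0.912, a smaller difference than this floor gives. Mrpl52 was at 10.6 FPKM in CD light RNA and 0 in CD heavy RNA, 2.48-fold lower on the same floor. Its interval reached up to 0.629, again a smaller difference. Mrpl18, Mrps22 and Mrps36 were also at 0 in CD heavy RNA, with 3.44, 2.46 and 7.62 FPKM in CD light RNA. Mrpl18 and Mrps22 had only 2 fragments there. Mrps36 carries a mitochondrial ribosomal name but is now known as a part of the 2-oxoglutarate dehydrogenase complex.

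The 3 highest values of the CD, above those of Mrps23 and Mrps25, came from members that were nearly undetected. Mrps21, Mrpl27 and Mrps11 were at 0 in CD light RNA and at 5.23, 2.79 and 1.99 FPKM in CD heavy RNA. The last 2 of these values stand for 1 fragment each, whose interval for Mrpl27 reaches down to a ratio of 0.028. A difference between the fractions of the CD was not detectable for these 3 at this depth.

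**Figure D2:**
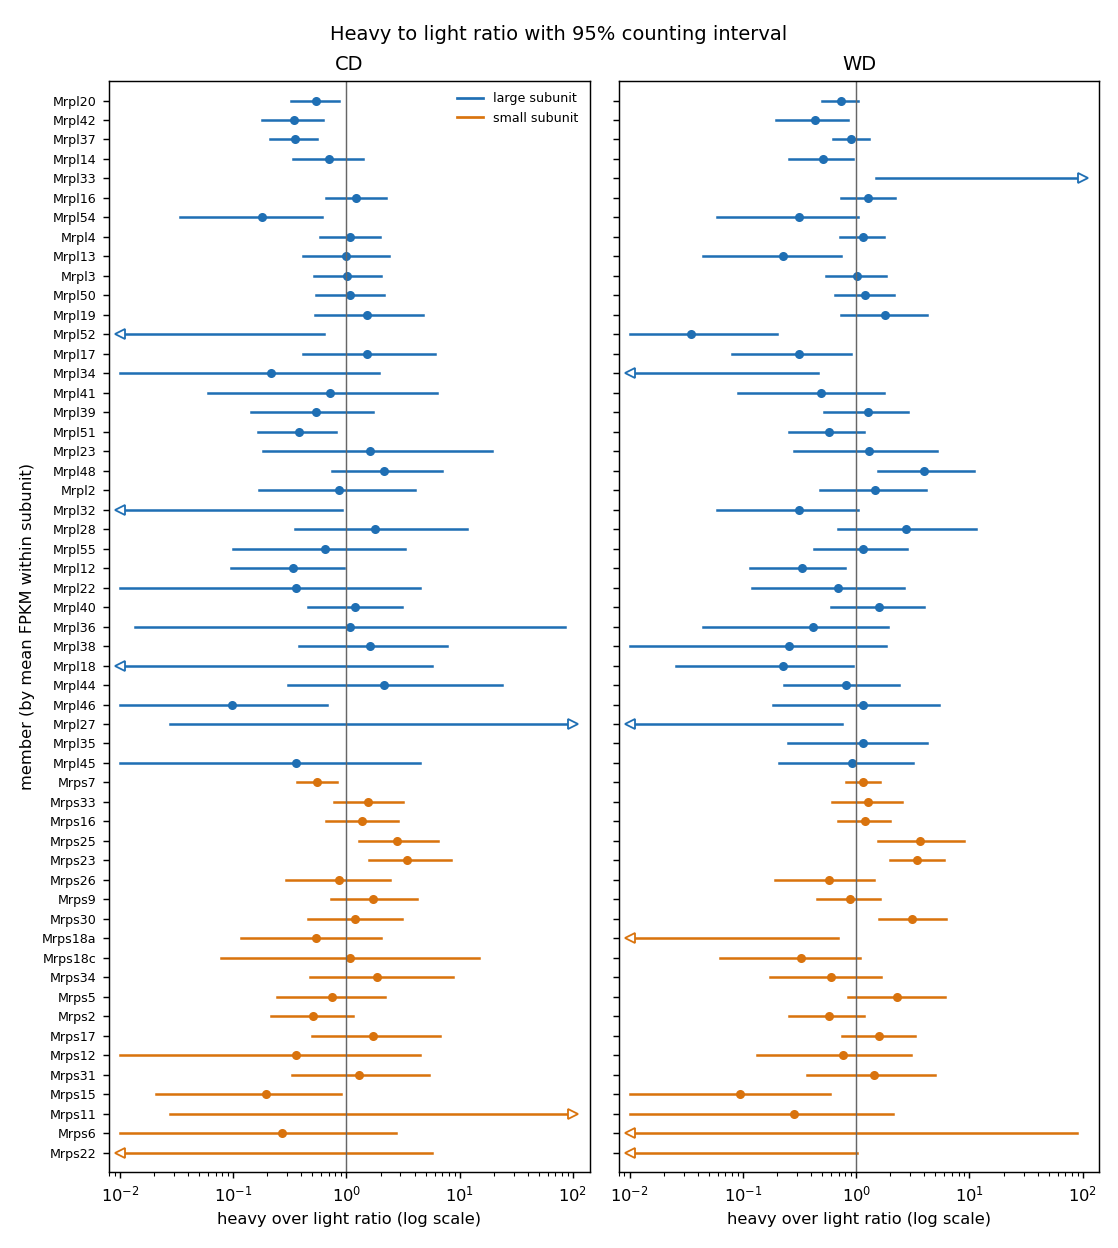
Heavy over light FPKM ratio (log axis) of the 55 members with fragments, in the CD (left) and the WD (right), ordered by mean FPKM within the large (blue) and small (orange) subunit. Points are ratios, lines are 95% Clopper-Pearson intervals of counting error cut at 0.01 and 100, and open triangles mark members with no fragment in the heavy (left-pointing) or light (right-pointing) library. Mrps23 and Mrps25 lie above 1 in both diets.

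On the WD more members lay on the light than on the heavy side. The median log2 heavy to light ratio was -0.19, against 0 over all loci, with -0.15 for the large and -0.29 for the small subunit. A ratio of at least 1.5 was seen in 12 of 69 members (17.4%), against 31.4% of all loci, and one of at most 0.75 in 32 members (46.4%), against 38.5%. The large subunit had 7 members at 1.5 or more and 19 at 0.75 or less, and the small subunit 5 and 13. These signs depend on scale, since with every library rescaled to the same sum over loci with a symbol the median was 0.26 over all loci, 0.12 over the members, 0.16 for the large and 0.02 for the small subunit, with 20 members (29.0%) at 1.5 or more, against 40.3% of all loci, and 29 (42.0%) at 0.75 or less, against 31.8%. The counting interval lay above 1 for 5 of 55 members (9.09%), against 17% of loci with fragments, and below 1 for 11 (20%), against 17.7%.

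The 5 members above 1 in the WD were Mrps23, Mrps25, Mrpl48, Mrps30 and Mrpl33. Mrpl48, specific to mitochondria, was at 4.33 FPKM in WD light and 17.3 in WD heavy RNA, a ratio of 3.99 (interval 1.56 to 11.0), and at 7.06 and 15.2 FPKM in the CD, a ratio of 2.15 (0.746 to 6.98). Mrps30, a large subunit protein despite its name, was at 7.80 FPKM in WD light and 24.1 in WD heavy RNA, a ratio of 3.09 (1.58 to 6.15), while in the CD it was at 9.98 and 11.8 FPKM, a ratio of 1.18 (0.456 to 3.10). The interval of Mrps30 for the change between the diets was 0.788 to 8.58 and included 1.

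Mrpl33 had the largest single FPKM value of any member and few data behind it. It was at 32.2 FPKM in CD total RNA and at 197 FPKM (4 fragments) in WD heavy RNA, and at 0 in the other 4 libraries. The 32.2 FPKM stand for 1 fragment, because the effective length behind its FPKM was 0.0145 of that of the median locus. Against the WD light library taken at 3 fragments it was 3.04-fold higher in WD heavy RNA. The counting interval of its ratio began at 1.505, a smaller difference. Its place as the eleventh member by mean level therefore rested on 5 fragments in all.

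The lowest ratios of the WD were again those of members at 0 in the heavy fraction. Mrpl34, the counterpart of bacterial L34, was at 31.8 FPKM (20 fragments) in WD light RNA and 0 in WD heavy RNA, 2.92-fold lower on the floor of 3 fragments (interval up to 0.462). Mrps18a was at 11.8 FPKM in WD light and 0 in WD heavy RNA, 2.05-fold lower on this floor (interval up to 0.687). Mrpl27, which lies near the site of peptide bond formation, was at 15.5 FPKM and 0, 1.90-fold lower (interval up to 0.748). The intervals of Mrpl34, Mrps18a and Mrpl27 allowed smaller differences than the floor gives. Mrps21 was at 22.4 FPKM and Mrpl21 at 22.3 FPKM in WD light RNA, both with 0 in WD heavy RNA. Mrpl52 was at 40.2 FPKM (66 fragments) in WD light RNA and 1.39 FPKM (1 fragment) in WD heavy RNA, a ratio of 0.035 (interval 0.00086 to 0.199). The bounds of Cufflinks did not overlap between WD heavy and WD light RNA for Mrpl52, Mrpl34 and Mrpl21, 3 of 69 members (4.35%) against 1.53% of all loci, and for the latter 2 the heavy bounds were listed as 0 to 0.

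A ratio of at least 1.5 on both diets was seen in 7 members (10.1%), against 19.6% of all loci. They were Mrpl19, Mrpl28, Mrpl48, Mrpl49, Mrps17, Mrps23 and Mrps25. A ratio of at most 0.75 on both diets was seen in 19 (27.5%), against 24.2% of all loci, 13 of the large and 6 of the small subunit. Among these were Mrpl12, Mrpl20, Mrpl34, Mrpl42, Mrpl52, Mrps15 and Mrps22. By sign alone, 19 of 69 members were on the heavy side and 25 on the light side in both diets, against 3658 and 3475 of 10201 loci. A further 14 members were heavy in the CD and light in the WD and 9 the reverse, for which no share over all loci was taken. Across the 69 members the ratios of the 2 diets had a Spearman rho of 0.39 and a Pearson r of 0.13, against 0.54 and 0.37 over all loci. Points of the same diet share their libraries. Opposite sides, a ratio of at least 1.5 on one diet and of at most 0.75 on the other, were seen in 8 members (11.6%), against 8.26% of all loci.

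**Figure D3:**
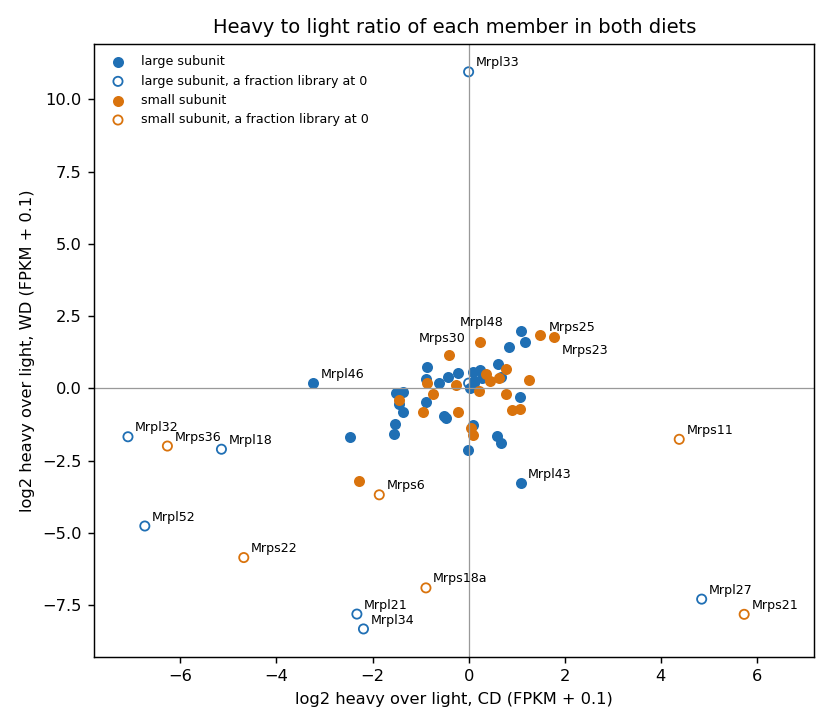
Log2 heavy over light ratio (FPKM + 0.1) of the 69 members in the CD (horizontal) and the WD (vertical), with the large subunit in blue, the small subunit in orange and open circles for members at 0 in at least 1 of the 4 fraction libraries. Most filled points lie within a few units of 0, and the far points, such as Mrpl33, Mrps21 and Mrpl27, are open.

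Among the members whose fragments could be inferred, the large and small subunit differed in summed fragments by more than counting error on both diets. Over the 55 members with fragments, CD light RNA held 692 and CD heavy RNA 497 fragments, a ratio of 0.771 after weighting each fragment by library (interval 0.686 to 0.867). It was 0.645 (0.554 to 0.75) for the large and 1.03 (0.850 to 1.24) for the small subunit. WD light RNA held 1480 and WD heavy RNA 568 fragments, a ratio of 0.875 (0.793 to 0.965), with 0.746 (0.656 to 0.845) for the large and 1.15 (0.980 to 1.35) for the small subunit. The intervals of the subunits did not overlap on either diet. Rescaled to the same sum over loci with a symbol, the WD ratios were 0.924 (0.813 to 1.05) for the large and 1.42 (1.21 to 1.67) for the small subunit. The position of these ratios relative to 1 therefore depended on scale. These sums leave out members without fragments. Of the large subunit these were Mrpl15 and Mrpl49, higher in heavy RNA on both diets, and Mrpl21, lower in it. Mrpl10 and Mrpl47 were higher in heavy RNA in the WD only, and Mrpl43 in the CD only. Of the small subunit, Mrps10 and Mrps24 were higher in heavy than in light RNA in the WD. Mrps14, Mrps18b, Mrps21, Mrps27, Mrps28 and Mrps36 were lower in heavy RNA there. The difference between the subunits in the WD therefore holds for members with fragments only. In FPKM over all members compared, the large subunit summed to 880 light and 619 heavy in the CD and 890 and 823 in the WD. The small subunit summed to 520 and 583 in the CD and 556 and 558 in the WD. Of the large WD heavy sum, 197 FPKM were Mrpl33, from 4 fragments.

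The sums were also taken without the 3 highest members of each subunit among those with fragments. Without Mrpl20, Mrpl42 and Mrpl37 the large subunit was at 0.795 in the CD and 0.747 in the WD, and without Mrps7, Mrps33 and Mrps16 the small subunit was at 1.20 and 1.13. Leaving out 1 member at a time kept the large subunit between 0.615 and 0.704 in the CD and between 0.719 and 0.796 in the WD, and the small subunit between 0.928 and 1.25 and between 1.03 and 1.21. The lowest small subunit values on both diets were those without Mrps23. The medians over genes gave the order large below small in the CD only, since in the WD the small subunit median was the lower one. Members share their libraries and are not replicates, so no p-value was computed.

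**Figure D4:**
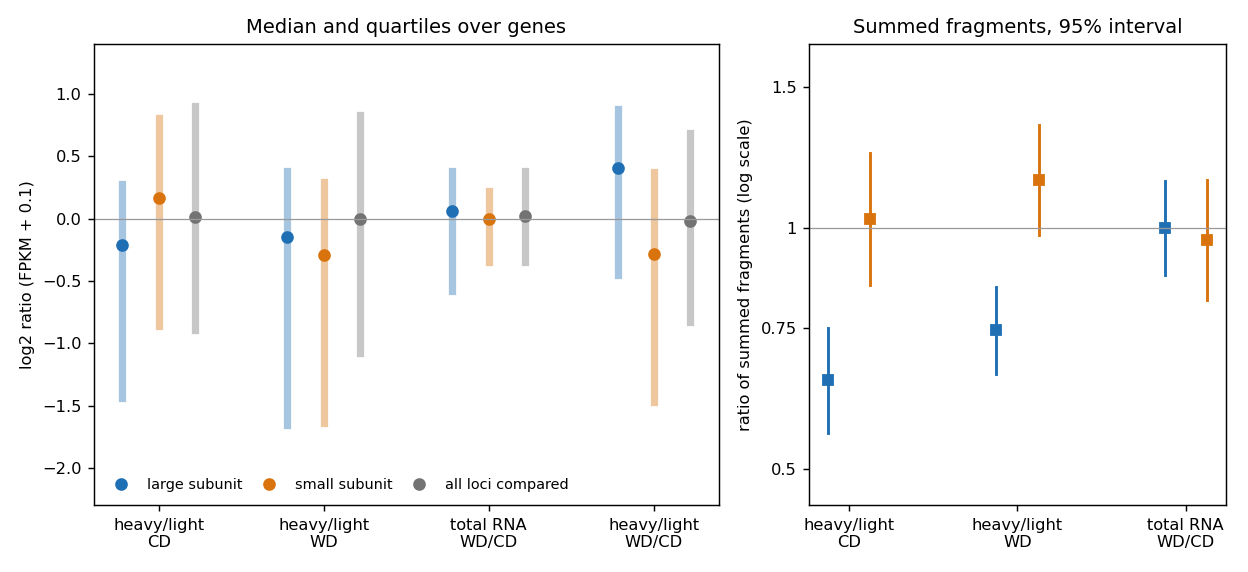
Left, median (points) and quartiles (bars) of 4 log2 ratios for the large subunit (blue), the small subunit (orange) and all loci compared (grey). Right, ratios of summed fragments (log axis) with 95% counting intervals, over members with fragments only. The large subunit is at 0.645 and 0.746 and the small subunit at 1.03 and 1.15 for heavy over light in the CD and the WD, and both include 1 for total RNA.

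A short reading frame can carry few ribosomes, and as a stand-in the effective length of the transcript could be read for 55 members from the FPKM value of 1 fragment. The longest were Mrpl40 (1.17 of the median locus), Mrpl51 (1.15) and Mrps2 (1.12), and the shortest Mrpl33, Mrpl23 (0.180) and Mrpl34 (0.197). The shortest 19 had a median log2 heavy to light ratio of -0.47 in the CD and -0.97 in the WD. The middle 18 had -0.06 and -0.27, and the longest 18 had 0.01 and -0.05. Across the 55 members the correlation was weak and of no steady sign. Pearson r was -0.052 in the CD and -0.25 in the WD, where Spearman rho was -0.020 and 0.20. Over all loci with fragments, Pearson r was 0.13 and 0.20 and Spearman rho 0.072 and 0.073. The WD Pearson value includes Mrpl33, the shortest member, with a log2 ratio of 10.95 from 4 heavy fragments and 0 light ones. Effective length also sets the FPKM value of 1 fragment, so that the shortest members were those measured with the coarsest steps.

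Total RNA of the WD held the members at close to their CD level in sum. The median log2 change from CD to WD was 0, against 0.02 over all loci, with 0.06 for the large and 0 for the small subunit by name (-0.13 and 0 by position), while rescaling the libraries to the same sum moved the median over all loci to 0.12. The median of 0 over the members is the value of Mrps6 and Mrps21, which were listed at 0 in total RNA of both diets. A ratio of at least 1.5 was seen in 12 of 69 members (17.4%), against 17.7% of all loci, and one of at most 0.75 in 19 (27.5%), against 22.7%. Over the 55 members with fragments there were 726 in CD total and 686 in WD total RNA, a weighted ratio of 0.988 (interval 0.889 to 1.10), with 1.00 (0.875 to 1.15) for the large and 0.967 (0.814 to 1.15) for the small subunit. No counting interval of 54 members lay above or below 1, against 3.04% and 3.1% of loci with fragments, and bounds of Cufflinks overlapped for all 69, where 0.0392% of all loci did not.

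The largest changes in total RNA belonged to members of few fragments. Mrpl27 was at 0 in CD and 1.86 FPKM in WD total RNA, which stands for 1 fragment. Mrpl36 was at 2.67 and 9.78 FPKM (2 and 7 fragments), a ratio of 3.66 (interval 0.697 to 36.1), and Mrpl46 at 1.27 and 4.63 FPKM with the same fragments and ratio. Mrps12, the counterpart of the bacterial protein at the decoding site, was at 5.07 and 17.7 FPKM, a ratio of 3.48 (0.897 to 19.7), and Mrps11 at 1.27 and 3.97 FPKM, a ratio of 3.14 (0.252 to 165). On the low side, Mrpl23 was at 12.9 and 2.70 FPKM and Mrpl34 at 11.8 and 2.47 FPKM, both from 5 fragments to 1, a ratio of 0.209 (0.0044 to 1.87). Mrpl43 was at 5.80 and 1.52 FPKM, Mrpl12 at 4.49 and 2.01 FPKM, a ratio of 0.448 (0.075 to 1.96), and Mrpl33 at 32.2 and 0 FPKM. Every interval given here included 1.

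Ribosome density, the heavy to light ratio in the WD over that in the CD, had medians on opposite sides of 0 in the 2 subunits as deposited. Its median log2 change was 0.14 over the members and -0.02 over all loci, with 0.41 for the large and -0.29 for the small subunit. Rescaled to the same sum, it was 0.28 over all loci, 0.73 for the large and 0.04 for the small subunit, so that the small subunit median changed sign. A change of at least 1.5 was seen in 21 members (30.4%), against 27.7% of all loci, and one of at most 0.75 in 24 (34.8%), against 36.1%. After rescaling these were 30 members (43.5%), against 38% of all loci, and 21 (30.4%), against 27%. Of the large subunit 16 were at 1.5 or more and 11 at 0.75 or less, and of the small subunit 5 and 13, with no test of the difference. These counts go by the name of the gene. Placed by position, with Mrps30 and Mrps18a in the large subunit and Mrps36 left out, 17 and 12 of 43 large and 3 and 12 of 25 small subunit members passed, with medians of 0.41 and -0.30. None of the 9 small subunit proteins specific to mitochondria reached 1.5 and 5 were at 0.75 or less, while the 16 with a bacterial counterpart had 3 and 7. The interval of the change lay above 1 for 2 of 52 members (3.85%), against 4.18% of loci with fragments, and below 1 for none, against 3.93%.

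The 2 members were Mrpl37 and Mrps7. Mrpl37 was at 78.7 FPKM in CD light, 27.4 in CD heavy, 52.2 in WD light and 47.1 in WD heavy RNA, so that its ratio of 0.349 in the CD compares with 0.904 in the WD, a change of 2.59 (interval 1.42 to 4.81). Mrps7 had a ratio of 0.552 in the CD and of 1.15 in the WD, a change of 2.09 (1.21 to 3.60), at a locus that overlaps Gga3 and U6. Both had a lower light and a higher heavy level in the WD than in the CD. Mrpl20, with similar depth, changed by 1.36 (0.734 to 2.55), and Mrps23 by 0.988 (0.350 to 2.65).

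The extremes of the change in density had a fraction library at 0 or a few fragments. At the top stood Mrpl33, Mrpl32, Mrps36, Mrpl46 and Mrpl18, of which only Mrpl46 was above 0 in all 4 fraction libraries. Mrpl46 was at 10.2 FPKM light and 0.994 heavy in the CD and at 2.55 and 2.91 FPKM in the WD, a change of 11.7 (interval 0.687 to 667). At the bottom stood Mrps21, Mrpl27, Mrps11, Mrpl34 and Mrps18a, all with 0 in CD light or WD heavy RNA. Mrps11 was at 6.81 FPKM in WD light and 1.94 in WD heavy RNA. Among the 69 members 14 were at 0 in at least 1 fraction library (20.3%), against 15.8% of all loci compared. Members at 0 numbered 7 in each heavy fraction, 5 in CD light and 1 in WD light RNA.

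Other genes of mitochondrial translation were looked at beside the members. Of 16 translation factors, 13 were compared, and their density change had a median of -0.82, with 3 at 1.5 or more and 9 at 0.75 or less, against 27.7% and 36.1% of all loci. Of their heavy to light ratios in the CD, the highest log2 values were those of Gfm1, an elongation factor that moves the ribosome (2.29), and Lrpprc, which stabilises mitochondrial mRNAs (1.95), and the lowest those of the initiation factor Mtif2 (-4.76) and the release factor Mtrf1l (-3.76), both at 0 in CD heavy RNA. Lrpprc was at 14.9 FPKM in CD light, 57.9 in CD heavy, 18.1 in WD light and 40.0 in WD heavy RNA. Its heavy to light ratio lay above the members' median on both diets.

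Of 21 genes for mitoribosome assembly and rRNA maturation, 14 were compared, with a median density change of 0.55, 7 at 1.5 or more and 2 at 0.75 or less, where 27.7% and 36.1% of all loci passed. In the CD the highest log2 heavy to light ratios were those of Eral1, a chaperone of the small subunit rRNA (1.56), and Rpusd4 (1.37), and the lowest those of Ngrn (-1.96) and Mtg1 (-1.81). Eral1 was at 3.49 FPKM in CD light, 10.5 in CD heavy, 4.49 in WD light and 18.3 in WD heavy RNA. In total RNA the median change was 0.15 for the assembly genes and 0.19 for the translation factors. Of 6 mitochondrial ribosomal proteins with another kind of symbol, 4 were compared (Dap3, Chchd1, Gadd45gip1 and Ict1), and Chchd1 was the highest with a mean of 80.0 FPKM. The symbols mrpl9, mrpl11 and mrpl24 are written in lower case in the table and fell outside the rule, and all 3 had a density change of at most 0.75.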

How the data were processed

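Per the labels, RNA of 3 rats was combined for each of the 6 libraries. The authors removed rRNA before sequencing and used TopHat, Cufflinks and Cuffnorm with the build Rnor_6.0, and deposited FPKM for each locus, each with a lower and an upper bound. Read totals were not used here, and the annotation is not given in the sources used here. FPKM of loci with a symbol summed to between 616030 and 866676 per library, so normalization affects every ratio between libraries.

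The members and lists were chosen with earlier results of these data known. Log2 ratios were computed after adding 0.1 FPKM, which understates changes of low genes above 0 in both libraries. Where a library is at 0, the added value sets the size of the ratio, which can be far too large. Loci were compared if they carried a symbol, if Cufflinks marked the estimate OK and if the 6 libraries averaged 1 FPKM or more. A locus can pass mainly through 1 library, and its ratio with that library is then partly set by the filter. Mrps21, Mrpl27 and Mrps22 owed most of their mean to WD light RNA, and Mrps6 to CD light RNA. The study's methods apply 1.5 and 0.75 to ribosome density in CD over WD. Here both were applied to each ratio in the direction stated, including WD over CD, so these counts are not the study's calls. With 1 library per group no test was run. Fragments were inferred as whole multiples of 1 step per gene and 1 weight per library, found for 82.6% of 12460 loci and for 9.09% after values were jittered by 1%, and were used where the bound of Cufflinks lay within 5% of that usual for the number (6347 loci compared). These numbers are inferred, and the same FPKM would follow for whole multiples of them. The inference was also run on simulated data, with the outcome not reported here. Intervals cover counting error only (95%), with a floor of 3 fragments for 0, and for density changes are exact conditional intervals of an odds ratio.

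Named members were the 6 highest in mean, the 5 highest and 5 lowest of each ratio, the 3 longest and shortest by effective length, those under 1 FPKM, Mrps30 and Mrps18a, and for other lists the 2 highest and 2 lowest heavy to light ratios in the CD. Mrpl37, Mrps15, Chchd1 and other genes beyond this rule were picked after their values were seen. Protein length had been planned, and effective length took its place. Promoters were RefSeq sequences of GRCr8, the first entry per symbol, and the symbols of 72 of 73 members were found in that annotation. Alternatives were other pseudocounts (0.01 and 1 FPKM and none), other filters (none and 10 FPKM), rescaled or centred libraries, single-locus symbols and heavy over total RNA. Python 3.11.15, numpy 2.4.6, pandas 2.3.3, scipy 1.17.1 and matplotlib 3.10.9 were used.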

Additional observations from a re-analysis of the deposited data

Results flagged for a closer look

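A group of 8 of 69 members (11.6%, against 8.26% of all loci) had a heavy to light ratio of at least 1.5 on one diet and of at most 0.75 on the other, in opposite directions, and the difference was not tested because each ratio comes from 1 library per fraction. In WD minus CD log2 ratio they were Mrps21 (-13.55), Mrpl27 (-12.14), Mrps11 (-6.14), Mrpl43 (-4.36), Mrpl38 (-2.57), Mrps27 (-1.79), Mrps34 (-1.63) and Mrpl47 (1.62). Mrps21, Mrpl27 and Mrps11 were at 0 in CD light RNA, so that the size of their difference was set by the 0.1 FPKM added and is no measure of fold. Mrps21 and Mrpl27 passed the filter mainly through WD light RNA (22.4 and 15.5 FPKM). Their light side in the WD was therefore partly set by the filter. Mrpl43 was at 4.25 FPKM in CD light, 9.12 in CD heavy, 43.9 in WD light and 4.45 in WD heavy RNA, and it overlaps Peo1. Mrpl38 had 4 and 6 fragments in the CD and 9 and 1 in the WD. Mrps34 had 4 and 7 fragments in the CD and 19 and 5 in the WD. Mrpl47 was the only one of the 8 to move toward the heavy fraction, with 4.43 FPKM light and 2.38 heavy in the CD and 2.71 and 4.64 in the WD.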

How the results depend on the processing

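With libraries rescaled to the same sum, the median change in ribosome density of the members was 0.46 and 20 members had a WD heavy to light ratio of at least 1.5, since the WD light library has the largest sum. With a mean of at least 10 FPKM, 37 members were left and the counts fell with them, to 9 (at least 1.5) and 14 (at most 0.75) in the CD, 6 and 15 in the WD, 2 at least 1.5 in total RNA, and 7 and 12 for the change in density. The share of all loci under this filter was not taken, so these counts cannot be read as high or low for the members. Against effective length, Pearson r turned to 0.23 in the CD with heavy over total RNA and to 0.058 in the WD with members above 0 in all 4 fraction libraries, and in the WD was -0.43 among members of 10 FPKM or more and -0.38 with heavy over total RNA. Spearman rho in the WD stayed above 0, at 0.12 with members above 0 in all 4 fraction libraries. It was 0.10 among members of 10 FPKM or more and 0.083 with heavy over total RNA. The cause of these differences was not tested. The large minus small median stayed below 0 in the CD under all 10 alternatives (-0.55 to -0.23) but in the WD ran from -0.61 to 0.33, below 0 in 2 of 10. The median density change stayed above 0 in all 11 (0.075 to 0.46). The 3 members of highest level left out of the sums, the lower-case symbols, zeros taken as 3 fragments and effective length were chosen after seeing the data. Protein length was not run. No replicate could be left out, since each group is 1 library. No paired analysis was possible because each group holds 1 library. Depth limited most single members, with a median of 6 to 19 fragments per library.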
